A study of Mus musculus with 4 samples.

Results

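The genes described here are 37 mouse genes that make, sense, move, store or export sterols, measured in S-180 tumour cells after fluoxetine. They were chosen by name, as members of 6 steps: the mevalonate pathway (8 genes), squalene and the late sterol steps (12), regulators (6), uptake, transfer and storage (5), lysosomal exit (3) and efflux (3). Of the 37, 36 had at least 1 array probe whose RefSeq transcript maps to the gene, and 33 were bright enough to be tested, out of 23771 genes with a matched probe and 13539 genes tested. Acat2 had no matched probe, and Stard4, Abca1 and Abcg1 were too dim.

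S-180 is a transplantable mouse sarcoma line, here a purchased culture kept in RPMI with 10% serum. The treated group had 20 µM fluoxetine, a selective serotonin reuptake inhibitor and cationic amphiphilic drug, for 12 h (2 samples, fluoxetine 1 and fluoxetine 2), and the control group had no fluoxetine for the same time (2 samples, control 1 and control 2). The labels name no vehicle for the controls, no strain and no sex, and they call the samples biological replicates without saying whether the cultures were separate, so p-values cover only the spread between these samples. Each sample was hybridised to its own single-colour Agilent array with Cy3-labelled RNA made from 10 ng.

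Cells make cholesterol from acetyl-CoA through the mevalonate pathway, which ends in farnesyl pyrophosphate. Squalene is then formed, oxidised and closed into lanosterol, and a chain of demethylations, reductions and isomerisations turns lanosterol into cholesterol. When the endoplasmic reticulum is low in sterol, the escort protein SCAP carries membrane-bound SREBP factors to the Golgi, where they are cut and released to switch on synthesis genes. INSIG proteins hold SCAP back when sterol is plentiful, and liver X receptors, which bind oxysterols, switch on export. Cholesterol taken up in lipoproteins is freed from its esters in the lysosome and leaves it through the NPC1 and NPC2 proteins.

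SREBP factors act on sterol regulatory elements, often beside a CCAAT box bound by the factor NF-Y. Promoter sequence is therefore shown for some of the genes below, each picked for the reason given with it. The windows run from 250 bases before to 50 bases after the annotated start (RefSeq, GRCm38.p6), and 30 of the 37 genes were in that table, with 39 windows. The 7 others were Fdps, Fdft1, Sqle, Scarb1, Stard4, Npc1 and Abcg1. Only the 250 bases upstream are printed, 5′ to 3′ on the strand of the gene, and capitals mark the element core TCACNCCAC and the box CCAAT, each on either strand (the box then reads ATTGG). Hmgcs1 (chr13:119690101-119690350, plus strand) is shown as the sole member with that core in these windows, and Mvk (chr5:114444019-114444268, plus strand) as a mevalonate gene with 5 boxes. Mvk did not lead the rises given below (0.44). Osbp, also with 5 boxes, was not called there (0.15). Cyp51 (chr5:4104698-4104947, minus strand) and Msmo1 (chr8:64733579-64733828, minus strand) are shown as late-step genes with large rises, Insig1 (chr5:28071162-28071411, plus strand) as the regulator with the largest rise, and Tm7sf2 (chr19:6067851-6068100, minus strand) as the synthesis gene that fell.
Hmgcs1: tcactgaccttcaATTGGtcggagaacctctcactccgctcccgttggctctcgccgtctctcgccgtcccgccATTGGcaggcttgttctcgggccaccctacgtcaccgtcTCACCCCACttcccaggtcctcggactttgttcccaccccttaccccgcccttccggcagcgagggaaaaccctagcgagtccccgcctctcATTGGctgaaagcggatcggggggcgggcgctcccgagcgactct
Mvk: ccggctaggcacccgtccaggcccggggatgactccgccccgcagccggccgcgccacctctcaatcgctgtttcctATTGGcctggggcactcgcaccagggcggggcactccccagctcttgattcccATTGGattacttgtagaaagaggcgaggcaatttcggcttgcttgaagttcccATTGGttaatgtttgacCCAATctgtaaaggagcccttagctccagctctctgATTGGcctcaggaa
Cyp51: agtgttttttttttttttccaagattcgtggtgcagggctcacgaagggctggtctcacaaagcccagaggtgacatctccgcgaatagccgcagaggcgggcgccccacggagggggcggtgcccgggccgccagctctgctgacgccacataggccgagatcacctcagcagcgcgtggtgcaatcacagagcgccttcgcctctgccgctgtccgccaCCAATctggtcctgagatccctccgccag
Msmo1: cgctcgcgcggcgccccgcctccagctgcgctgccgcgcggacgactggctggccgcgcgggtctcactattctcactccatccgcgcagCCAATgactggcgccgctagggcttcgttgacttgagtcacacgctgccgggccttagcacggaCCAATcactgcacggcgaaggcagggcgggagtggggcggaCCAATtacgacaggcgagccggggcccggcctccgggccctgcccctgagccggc
Insig1: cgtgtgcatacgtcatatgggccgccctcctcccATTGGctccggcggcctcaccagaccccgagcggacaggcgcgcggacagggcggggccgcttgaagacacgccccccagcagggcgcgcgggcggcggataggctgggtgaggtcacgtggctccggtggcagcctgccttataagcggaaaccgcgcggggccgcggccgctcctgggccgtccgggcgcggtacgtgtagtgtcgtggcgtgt
Tm7sf2: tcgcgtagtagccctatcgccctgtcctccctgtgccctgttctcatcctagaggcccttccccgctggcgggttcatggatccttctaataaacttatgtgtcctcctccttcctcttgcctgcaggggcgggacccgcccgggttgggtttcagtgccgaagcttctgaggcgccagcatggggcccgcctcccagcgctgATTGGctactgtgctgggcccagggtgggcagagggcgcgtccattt

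Across the windows, CCAAT stood in at least 1 window of 24 of the 30 members (80.0%), against 41.1% of all 27025 genes in the table; by window the shares were 61.5% of 39 and 37.4% of 32851. By the array calls given below, the box was present in 12 of 14 members that rose, 1 of 2 that fell and 11 of 12 that were tested and not called. The core TCACNCCAC stood in 1 of the 30 members and in 1.44% of all genes, and the E-box CACGTG in 6 of 30 (Abca1, Dhcr7, Hsd17b7, Insig1, Sc5d and Scap) and in 8.09% of all genes. No match of 1 motif shared a base with a match of another in the members (0 overlaps). These are matches of letters only and are no evidence that a factor binds there. A missing match of these exact letters is no evidence that a promoter lacks a sterol regulatory element.

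All 4 arrays lay on 1 slide and came from 1 scan, with fluoxetine arrays at places 3 and 4 and control arrays at places 1 and 2, so place on the slide and treatment cannot be told apart. Between 51.7% and 53.5% of non-control spots were well above background, 0 were saturated, and precision is limited by there being 2 arrays in each group. Of 10 mesenchymal markers, 7 were well above background on both fluoxetine arrays and 8 on both control arrays, with summed signals of 46700 and 45100 on the fluoxetine arrays and 52000 and 46700 on the control arrays, and the fibroblast markers Pdgfrb and Thy1 were not well above background on any array. Within that list Sparc, a matrix glycoprotein gene, fell (-0.62, limma adjusted p = 0.0162). The list did not move together, and 6 of its markers were tested and not called: Fn1 (0.32), Pdgfra (0.20), S100a4 (0.01), Cd44 (-0.03), Vim (-0.05) and Col1a1 (-0.43). The collagen gene Col1a2 was kept through its control arrays alone (49.2 and 36.1, against 10.9 and 10.4 with fluoxetine). Its fluoxetine signals were not well above background, so only a bound is given, at least 2.38-fold lower with fluoxetine. The epithelial genes Epcam, Krt8 and Krt18 were well above background on all 4 arrays and Cdh1 on none, with summed signals of 75600 and 73500 with fluoxetine, against 85900 and 91100 in control. Of 8 leukocyte markers, 4 were well above background in each group. Their summed signal was 24900 and 21600 on the fluoxetine arrays, against 10500 and 11400 on the control arrays, the pan-leukocyte marker Ptprc was not well above background on any array, and Cd68, which encodes an endolysosomal glycoprotein, made up most of each sum. The leukocyte markers did not move together: Cd68 rose (1.39, limma adjusted p = 0.0119) and Cd3e, a gene of the T-cell receptor complex, rose (0.52, adjusted p = 0.0313), while the myeloid integrin gene Itgam fell (-1.96, adjusted p = 0.00636) and Csf1r was not called (-0.16). The other kept probes of Cd3e and Itgam changed in the direction opposite to those given. The part of these markers in the results below was not tested, and in bulk RNA fewer cells of a type and less RNA per cell cannot be told apart.

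Sterol synthesis transcripts were mostly more abundant with fluoxetine, along with their regulators and a pair of lysosomal genes, while an alternative sterol reductase gene and the lipoprotein gene Apoe were less abundant. In limma, at a Benjamini-Hochberg adjusted p under 0.05 over all 13539 genes, 18 of the 33 tested members rose (54.5%, against 16.8% of all tested genes), 2 fell (6.06%, against 10.1%) and 13 were not called. Both fluoxetine arrays were above both control arrays for 23 members (69.7%, against 41.6% of all tested genes) and below them for 5 (15.2%, against 30.9%). The median log2 change, fluoxetine minus control, was 0.44 over the 33 members and 0.06 over all tested genes, whose 5th to 95th percentiles ran from -0.80 to 0.86. Since the members were chosen with earlier results of these data known, these counts are descriptions. They also rest on few arrays: 5 members rose and 1 fell without control 1, 10 and 1 without control 2, and 0 and 0 without either fluoxetine array, where 18 (without fluoxetine 1) or 20 (without fluoxetine 2) members were higher and 2 lower at an unadjusted p under 0.05.

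**Figure D1:**
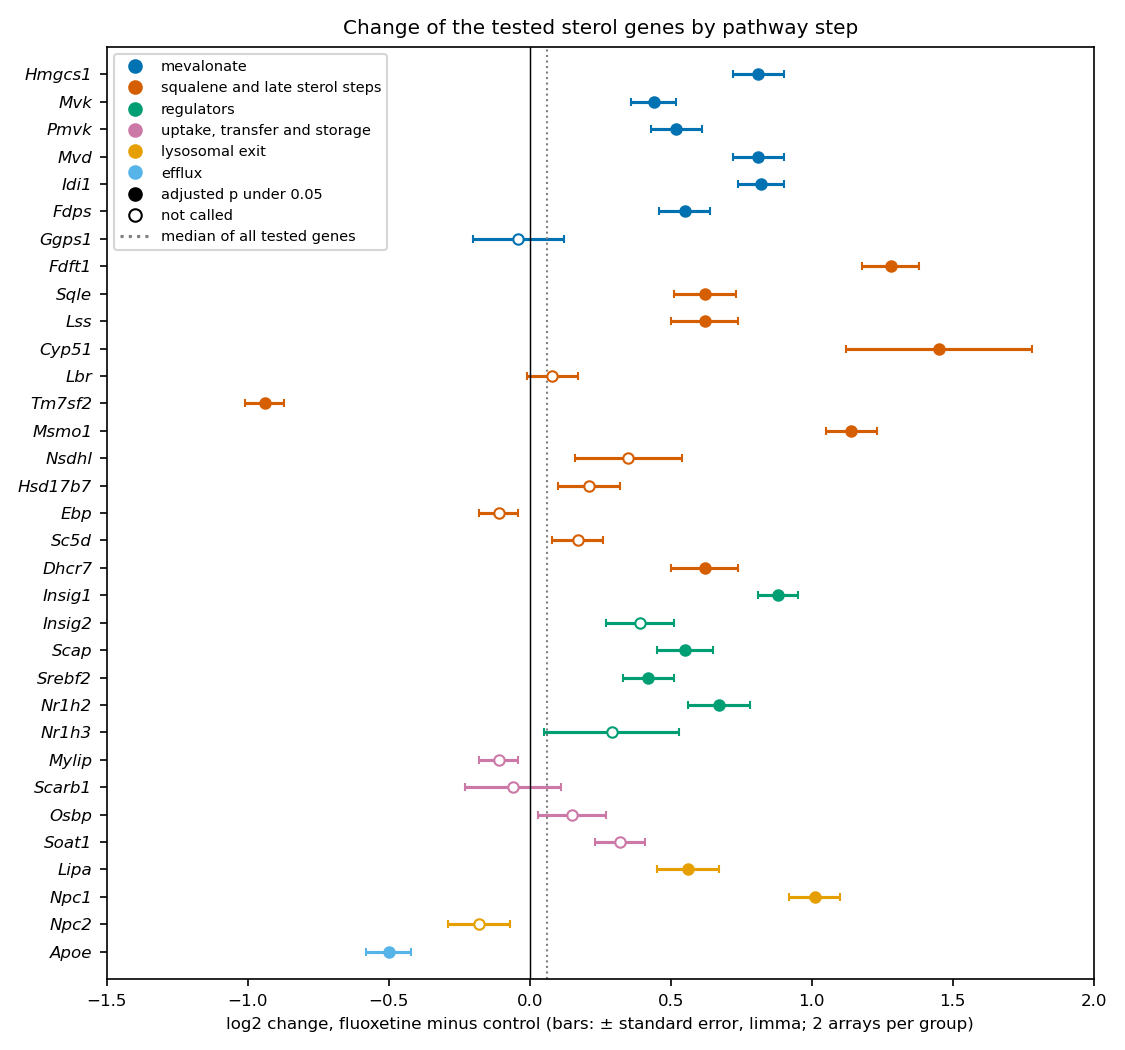
Log2 change (fluoxetine minus control) of the 33 tested sterol genes, with the standard error from limma as bars (2 arrays per group), coloured by step; filled points passed an adjusted p of 0.05. Of the 18 filled points right of 0, 6 are mevalonate genes and 6 are late sterol genes, and the filled points left of 0 are Tm7sf2 (-0.94) and Apoe (-0.50).

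**Figure D2:**
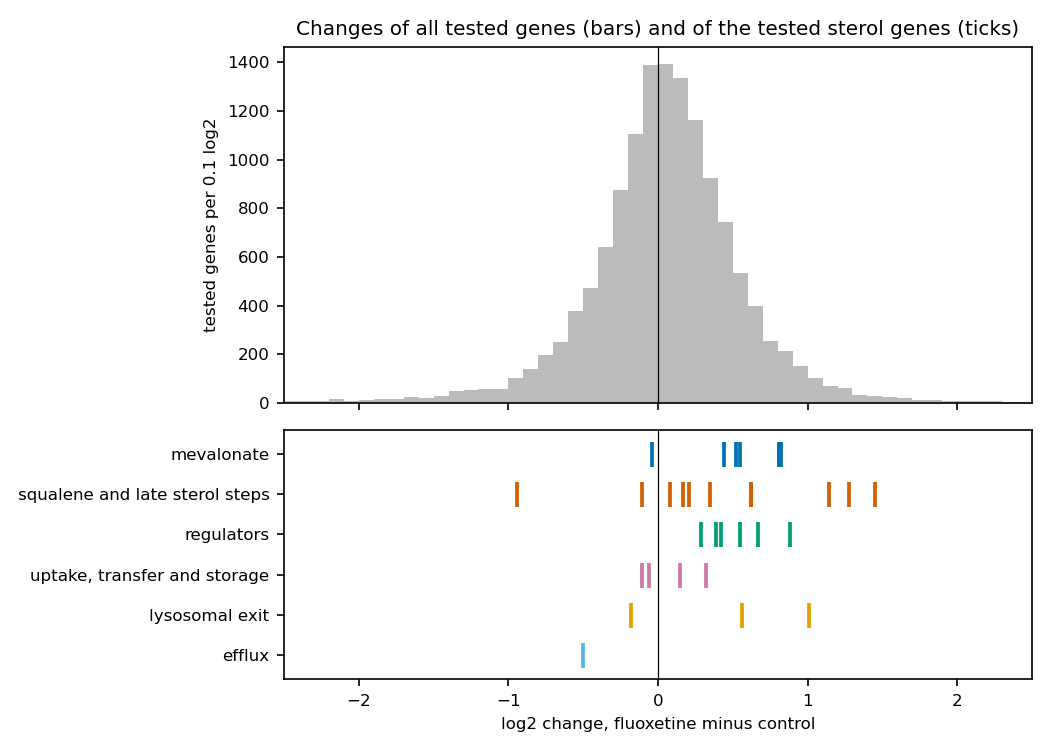
Number of tested genes in each 0.1-wide bin of log2 change (upper panel, 13539 genes) and the change of each tested sterol gene as a tick, in rows by step (lower panel). The mevalonate and regulator ticks lie right of the peak except Ggps1 (-0.04), while the late steps run from Tm7sf2 (-0.94) to Cyp51 (1.45).

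In the mevalonate pathway, 6 of 7 tested genes rose and 1 was not called, with a median change of 0.55. Over all tested genes 16.8% rose and 10.1% fell, and each step holds too few genes for its counts to be more than descriptions. Signals below are processed intensities scaled so that the arrays share 1 75th percentile (408). Hmgcs1, whose enzyme joins acetyl-CoA and acetoacetyl-CoA, read 8220 and 7310 on the fluoxetine arrays, against 4400 and 4440 on the control arrays. Idi1, the isopentenyl diphosphate isomerase gene, read 5940 and 5630 with fluoxetine, against 3170 and 3380 in control. Mvd, which encodes the decarboxylase before it, read 680 and 622 with fluoxetine, against 358 and 382 in control. These 3 were separate between the groups, and even the smallest of the 4 differences between a fluoxetine and a control array was above 0 for each (0.72, 0.74 and 0.70). Their log2 changes were 0.81 ± 0.09 for Hmgcs1, 0.82 ± 0.08 for Idi1 and 0.81 ± 0.09 for Mvd (standard error, n = 2 arrays per group), with limma adjusted p = 0.0155, 0.0134 and 0.0149.

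The other tested genes of the pathway changed less by their brightest probes, and differences between genes were not tested. The kinase gene Mvk read 1910 and 1840 with fluoxetine, against 1410 and 1360 in control (0.44 ± 0.08, adjusted p = 0.0278). The next kinase gene, Pmvk, read 5200 and 4820 with fluoxetine, against 3320 and 3660 in control (0.52 ± 0.09, adjusted p = 0.0298). Fdps, which encodes farnesyl pyrophosphate synthase, read 7390 and 6770 with fluoxetine, against 5050 and 4630 in control (0.55 ± 0.09, adjusted p = 0.0275). In each of these genes the groups did not overlap. The dimmer Mvk probe changed by 0.81 and the dimmer Pmvk probe by 0.34. Neither was called when each probe was tested alone (limma adjusted p = 0.0536 and 0.0564). Ggps1, which turns farnesyl into geranylgeranyl pyrophosphate for protein prenylation and so leaves the sterol branch, read 2520 and 1900 with fluoxetine, against 2200 and 2290 in control (-0.04 ± 0.16, adjusted p = 0.877). Its fluoxetine arrays lay on either side of the control arrays, and its 4 other probes changed by -0.34 to 0.02.

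Among squalene and late sterol genes, 6 of 12 rose, 1 fell and 5 were not called, with a median of 0.48. The genes that take farnesyl pyrophosphate to lanosterol and through its first demethylation rose together. Fdft1, squalene synthase, read 2550 and 2260 with fluoxetine, against 964 and 1020 in control (1.28 ± 0.10, adjusted p = 0.0109), and its other probe changed by 1.37. Sqle, the squalene epoxidase gene, read 5700 and 6640 with fluoxetine, against 4090 and 3890 in control (0.62 ± 0.11, adjusted p = 0.0277). Lss, the lanosterol synthase gene, read 680 and 782 with fluoxetine, against 501 and 448 in control (0.62 ± 0.12, adjusted p = 0.0311). Its dimmer probes changed by 1.05 and 0.54. Groups were separate in Fdft1, Sqle and Lss. Cyp51, the lanosterol demethylase gene, read 929 and 1770 with fluoxetine, against 460 and 481 in control (1.45 ± 0.33, adjusted p = 0.0464). Its fluoxetine arrays differed from each other far more than its control arrays did, and its change was 1.91 without fluoxetine 1 and 0.98 without fluoxetine 2. The dimmer Cyp51 probe, with 111 and 110 on the fluoxetine arrays and 60.0 and 70.1 on the control arrays, changed by 0.77.

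The next reduction can be carried by either of a pair of enzymes, and their genes did not move alike. Tm7sf2, which encodes the sterol reductase of the endoplasmic reticulum, read 482 and 468 with fluoxetine, against 912 and 910 in control (-0.94 ± 0.07, adjusted p = 0.0109). Lbr, the lamin B receptor gene, whose inner nuclear membrane protein has the same reductase activity, read 9920 and 9630 with fluoxetine, against 8820 and 9680 in control (0.08 ± 0.09, adjusted p = 0.514). Tm7sf2 fell on both fluoxetine arrays by nearly the same amount, and Lbr overlapped between groups; the difference between these genes was not tested. The second Tm7sf2 probe read 39.9 and 47.2 with fluoxetine, against 59.1 and 73.5 in control, a change of -0.60. It was far dimmer and was not called when each probe was tested alone (limma adjusted p = 0.0572).

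Later demethylation and the closing reductions were mixed. Msmo1, a methyl sterol oxidase gene, read 8120 and 7360 with fluoxetine, against 3480 and 3550 in control (1.14 ± 0.09, adjusted p = 0.0109), and its other probe changed by 1.41. Dhcr7, whose reductase makes cholesterol in the closing step of the Kandutsch-Russell route, read 1040 and 860 with fluoxetine, against 614 and 616 in control (0.62 ± 0.12, adjusted p = 0.033). Both genes were separate between the groups. The dehydrogenase gene Nsdhl (0.35 ± 0.19), the ketoreductase gene Hsd17b7 (0.21 ± 0.11) and the sterol desaturase gene Sc5d (0.17 ± 0.09) were not called, with adjusted p = 0.22, 0.2 and 0.22. The dimmer Hsd17b7 probe, at 317 and 308 with fluoxetine and 226 and 245 in control, changed by 0.41 and was called higher when each probe was tested alone (adjusted p = 0.0377). Nsdhl read 281 and 392 with fluoxetine, against 270 and 250 in control, so that its value rests on the higher fluoxetine array.

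Ebp, the sterol isomerase gene, gave 2 answers. Its brightest probe read 13200 and 13100 with fluoxetine, against 13900 and 14400 in control (-0.11 ± 0.07, adjusted p = 0.313). Its other probe read 2420 and 2270 with fluoxetine, against 1210 and 1380 in control, a change of 0.86. With each kept probe tested as a feature of its own over 19889 probes, a test added after these probes were seen to differ, the dimmer Ebp probe was called higher (adjusted p = 0.0161) and the brighter was not (adjusted p = 0.329). Both match the same RefSeq transcript. In that fit 27 of 57 kept probes of the sterol genes were higher and 3 lower, against 17.5% and 10.3% of all 19889 probes. Of the 17 sterol genes with more than 1 kept probe, the probes changed in a single direction for 12, and the exceptions were Ggps1, Ebp, Scarb1, Osbp and Soat1.

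**Figure D3:**
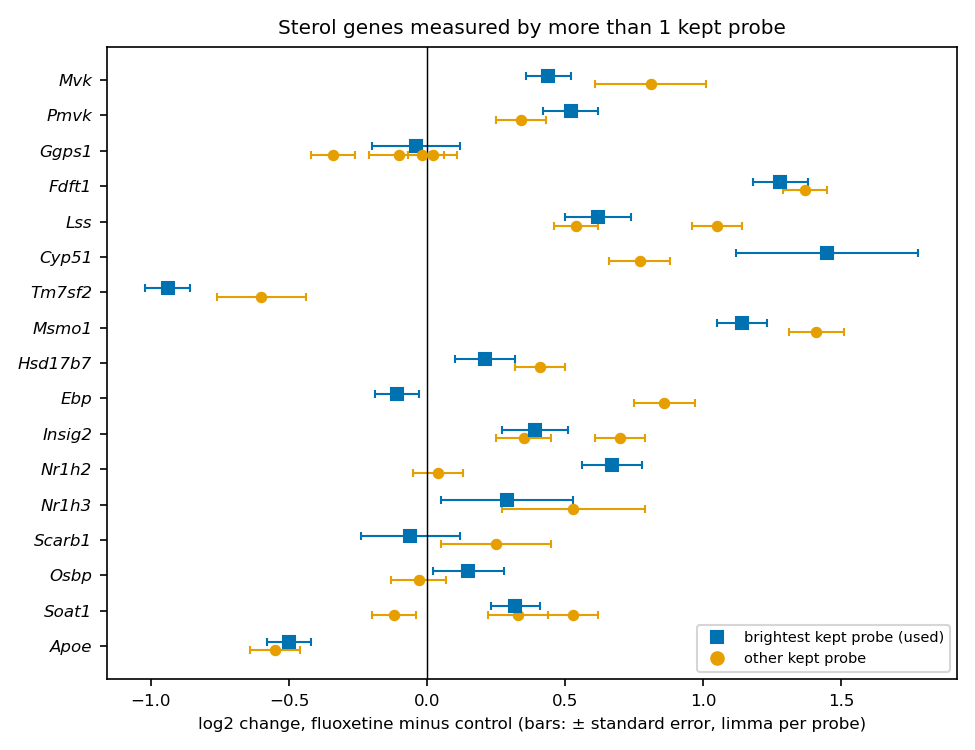
Log2 change (fluoxetine minus control) of every kept probe for the 17 sterol genes with more than 1, with standard errors from the limma fit per probe (2 arrays per group); squares are the brightest probes, which represent the gene, and circles the others. The probes of Fdft1 (1.28 and 1.37) and Apoe (-0.50 and -0.55) lie close together, while those of Ebp (-0.11 and 0.86) and Nr1h2 (0.67 and 0.04) do not.

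Of the 6 regulators, 4 rose and 2 were not called, with changes from 0.29 to 0.88. Insig1, itself an SREBP target whose protein holds SCAP back when sterol is plentiful, read 395 and 395 with fluoxetine, against 211 and 217 in control (0.88 ± 0.07, adjusted p = 0.0117). Scap, the escort gene, read 12300 and 13500 with fluoxetine, against 8410 and 9280 in control (0.55 ± 0.10, adjusted p = 0.0305). Srebf2, the gene of the SREBP that mainly serves sterol synthesis, read 1190 and 1120 with fluoxetine, against 826 and 903 in control (0.42 ± 0.09, adjusted p = 0.0398). The groups were separate in all 3. Insig2, the less sterol-responsive relative of Insig1, read 4490 and 3790 with fluoxetine, against 2980 and 3310 in control (0.39 ± 0.12, adjusted p = 0.0845). Its groups were separate too, and 1 of its 2 other probes was called higher in the fit per probe (0.70, adjusted p = 0.0167).

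The liver X receptor genes are the other regulators. Nr1h2, the broadly expressed receptor, read 20100 and 17600 with fluoxetine, against 11400 and 12400 in control (0.67 ± 0.11, adjusted p = 0.0241). Its other probe, which matches another transcript of the gene, read 148 and 142 with fluoxetine, against 136 and 146 in control, a change of 0.04, and the mean of both probes changed by 0.35 and was not called (adjusted p = 0.0584). Nr1h3, the relative most abundant in liver and macrophages, was near the detection limit, with 51.6 and 42.8 on the fluoxetine arrays and 31.1 and 47.1 on the control arrays (0.29 ± 0.24, adjusted p = 0.396). Its groups overlapped. The lowest scaled signals marked well above background were 15.5 to 20.3, depending on the array.

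**Figure D4:**
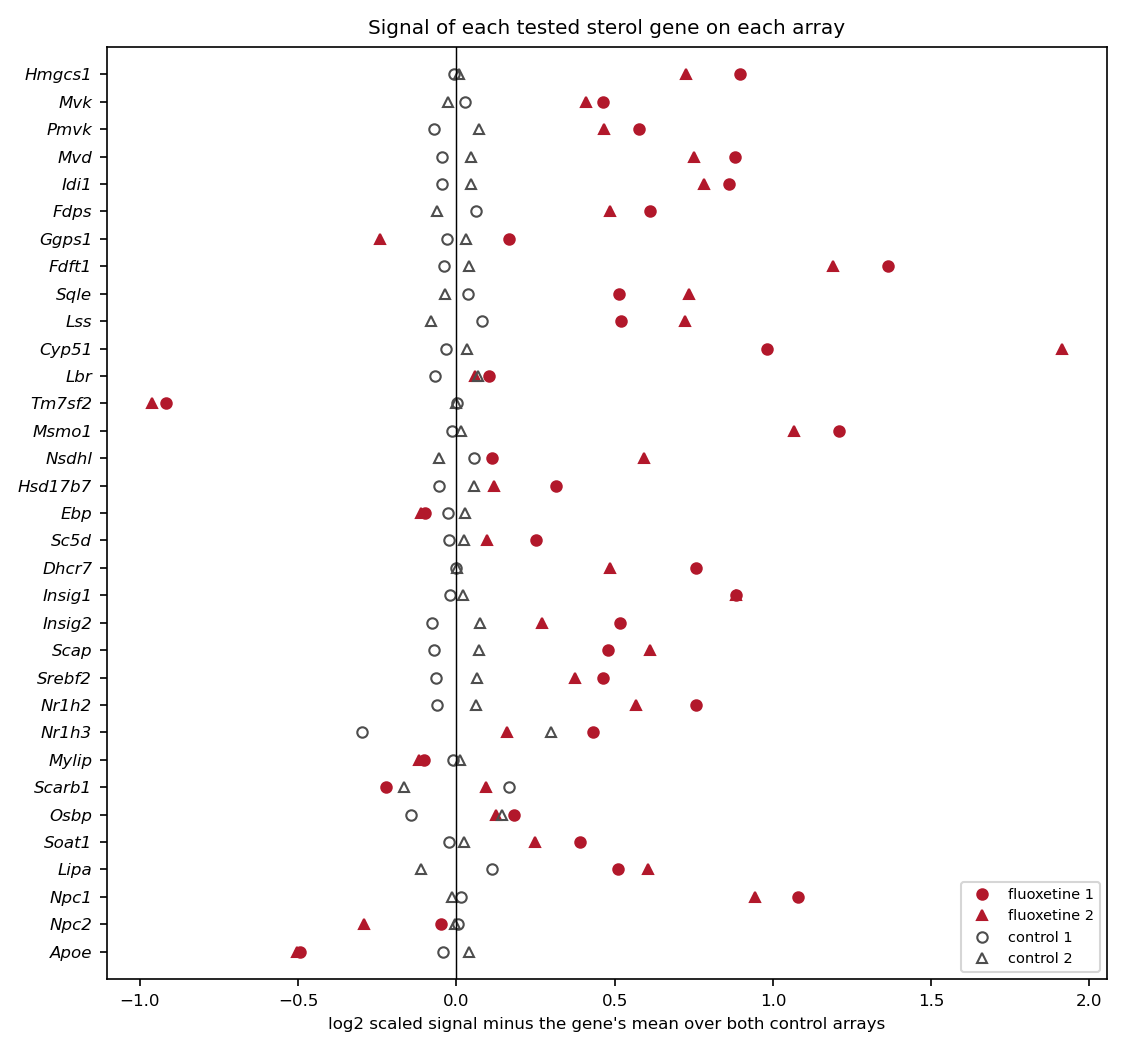
Scaled signal of each tested sterol gene on each array, on a log2 scale relative to the mean of both control arrays for that gene; filled red symbols are the fluoxetine arrays and open grey symbols the control arrays. For 23 of the 33 genes both red symbols lie right of both grey ones, and for Cyp51, Nsdhl and Ggps1 the red symbols stand well apart from each other.

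None of the 4 tested genes of uptake, transfer and storage was called (0 higher and 0 lower in limma), with changes from -0.11 to 0.32, and only Soat1 had an unadjusted limma p under 0.05. With 16.8% of all tested genes higher and 10.1% lower, 4 genes are too few to say that this step did not respond. With median scaling Mylip (0.10) and Scarb1 (0.15) changed sign and Soat1 was called. Mylip, a liver X receptor target whose ubiquitin ligase removes lipoprotein receptors from the surface, read 754 and 746 with fluoxetine, against 804 and 816 in control (-0.11 ± 0.07, adjusted p = 0.299). Scarb1, the receptor gene for high-density lipoprotein, read 635 and 790 with fluoxetine, against 830 and 660 in control (-0.06 ± 0.17, adjusted p = 0.803), and its groups overlapped. Osbp, which encodes an oxysterol-binding protein that carries cholesterol from the endoplasmic reticulum to the Golgi, read 318 and 306 with fluoxetine, against 254 and 310 in control (0.15 ± 0.12, adjusted p = 0.391). Soat1, the sterol acyltransferase gene that makes cholesteryl esters for storage, read 4210 and 3810 with fluoxetine, against 3160 and 3260 in control (0.32 ± 0.09, adjusted p = 0.066). Its groups did not overlap, but its other probes ran from -0.12 to 0.53. The probe at 0.53 was called higher in the fit per probe (limma adjusted p = 0.0234). Stard4, a sterol transfer protein gene, was not well above background on any array, with signals from 4.21 to 5.99.

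Lysosomal exit was uneven. Npc1, whose membrane protein exports cholesterol from the lysosome, read 3030 and 2760 with fluoxetine, against 1450 and 1420 in control (1.01 ± 0.09, adjusted p = 0.0119). Lipa, the acid lipase gene that frees cholesterol from its esters, read 589 and 629 with fluoxetine, against 447 and 382 in control (0.56 ± 0.11, adjusted p = 0.0353). Both rose with separate groups. Npc2, whose soluble protein hands cholesterol to NPC1, read 18700 and 15800 with fluoxetine, against 19400 and 19300 in control (-0.18 ± 0.11, adjusted p = 0.29, and 0.04 with median scaling). The change of Npc1 was above that of 96.9% of all tested genes and that of Npc2 above 27.5%.

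For efflux, 1 of 3 genes could be tested. Apoe, which encodes the apolipoprotein that accepts exported cholesterol, read 1250 and 1240 with fluoxetine, against 1710 and 1810 in control, and fell by 0.50 on the log2 scale (-0.50 ± 0.08, adjusted p = 0.0228). Its other probe, for another transcript of the gene, changed by -0.55. Apoe was lower on both fluoxetine arrays than on either control array. The exporter gene Abca1 was well above background on 1 fluoxetine and 1 control array, with 4.77 and 46.1 on the fluoxetine arrays and 28.5 and 4.93 on the control arrays. The exporter gene Abcg1 was well above background on none, with 9.52 and 9.88 on the fluoxetine arrays and 9.04 and 16.3 on the control arrays, so no change can be given for either transporter.

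Beside the 37 genes, 49 others of sterol biology were listed, of which 42 were tested: 11 rose (26.2%, against 16.8% of all tested genes), 2 fell (4.76%, against 10.1%) and 29 were not called, with a median change of 0.28, against 0.06 over all tested genes. The shares called in the first 3 of these lists lie near or below those of all genes and say nothing particular about these steps. In the supply of acetyl-CoA, 1 of 5 rose: Slc25a1, the mitochondrial citrate carrier gene, which read 7250 and 6570 with fluoxetine, against 2650 and 3080 in control (1.27 ± 0.12, adjusted p = 0.0124). The citrate lyase gene Acly (0.38), Acss2 (0.40) and Aacs (0.37) were separate between groups and not called (adjusted p = 0.0887, 0.0574 and 0.0561). Of 10 genes for SREBP processing and sterol-regulated protein degradation, 1 rose: Srebf1, the gene of the SREBP that mainly serves fatty acid synthesis, which read 12600 and 11500 with fluoxetine, against 7370 and 7480 in control (0.70 ± 0.08, adjusted p = 0.0164). The 9 others were not called, among them the protease genes Mbtps1 (0.15) and Mbtps2 (0.14) that cut SREBP. The other kept probes of Acly and Mbtps2 changed the other way. Where the mevalonate pathway branches to ubiquinone, dolichol and prenylated proteins, 1 of 8 rose (Pdss2, of ubiquinone synthesis, 0.43 ± 0.10, adjusted p = 0.0443), 1 fell (Nus1, of dolichol synthesis, -0.34 ± 0.08, adjusted p = 0.0467) and the list median was -0.24.

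Among 11 tested genes of sterol transfer between membranes, 4 rose, 1 fell and 6 were not called. Over all tested genes 16.8% rose and 10.1% fell, and the lists in this paragraph are too short for their counts to be more than descriptions. Gramd1b, whose Aster protein moves cholesterol from the plasma membrane to the endoplasmic reticulum, read 8920 and 9170 with fluoxetine, against 3310 and 3480 in control (1.41 ± 0.08, adjusted p = 0.00817). Of its 2 other kept probes, 1 changed the same way. Osbpl2, an oxysterol-binding protein relative, rose by 0.79 ± 0.18 (adjusted p = 0.045), and Gramd1a fell (-0.54 ± 0.10, adjusted p = 0.0299) while its other kept probe went the other way. Of 5 tested genes of sterol esters, oxysterols and liver X receptor targets, 3 rose: the cholesteryl ester hydrolase gene Nceh1 (0.71 ± 0.08, adjusted p = 0.0148), Soat2 (0.61 ± 0.09, adjusted p = 0.0208) and Lpcat3 (0.58 ± 0.08, adjusted p = 0.0207). Of 3 tested genes of lipoprotein receptors and adaptors, 1 rose and 2 were not called. Lrp1, a large endocytic receptor gene, read 1200 and 1150 with fluoxetine, against 651 and 630 in control (0.88 ± 0.08, adjusted p = 0.0119), and Lrp8 (0.28) was not called.

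The size of these counts depends on how the arrays are scaled. With each array set to its median in place of its 75th percentile, the median change of all tested genes was 0.27 in place of 0.06, and calls over all genes were 5486 higher and 813 lower (87.1% higher), against 2273 and 1374 (62.3% higher) as reported. The sterol genes then had 23 rises and 2 falls. The median of the sterol genes stayed 0.38 above that of all genes, which holds by construction, since this scaling moves every gene of an array by the same amount. The 18 rises reported above were all called again under median scaling, which is little test of them, since this scaling raised their changes. The 2 falls, which it made smaller, were also called again, Tm7sf2 at -0.73 and Apoe at -0.29. Lbr, Hsd17b7, Sc5d, Insig2 and Soat1 were called higher in addition.

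**Figure D5:**
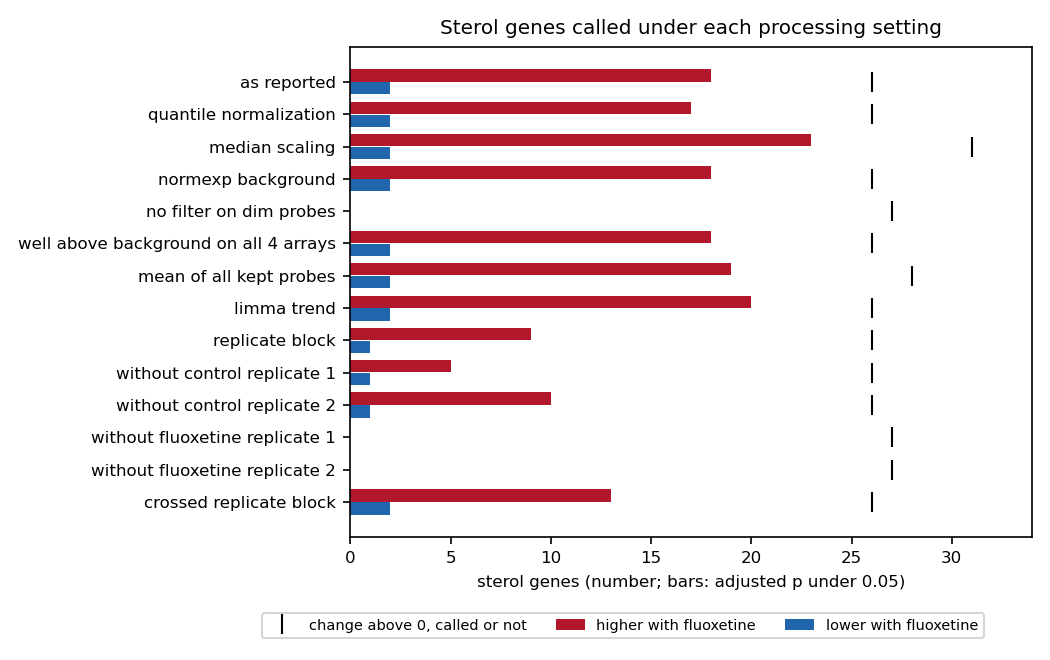
Number of sterol genes called higher (red bars) and lower (blue bars) at an adjusted p of 0.05 under each processing setting, with the number whose change was above 0, called or not, as a vertical mark. Calls run from 0 to 23 higher, with none without either fluoxetine array or without the filter on dim probes, while 26 to 31 genes were above 0 under every setting shown. The 31 is with median scaling, where the median change of all tested genes was 0.27. Several settings refit the same changes, and without the dim filter 36 sterol genes were tested in place of 33.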

How the data were processed

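Arrays of 4 samples were read from the deposited intensity values, which are scanner output that, per the file headers, the authors made with Feature Extraction 12.1.0.3. The processed signal intensity used here was background-corrected by that program and, per the file headers, carries no scaling between arrays. Later normalization or tests by the authors are not given in the sources used here. Control spots and spots marked as non-uniform or outlying were left out, spots of 1 probe were averaged, and 47 of 56605 probes were dropped. Each array was centred on log2 of its own 75th percentile of signal. Probes were named by RefSeq accession through the GRCm38.p6 gene table, and 34645 matched 1 symbol. A probe was kept when the pair of arrays of either group both rose well above background, and the brightest kept probe stood for its gene. Fluoxetine minus control was fitted with limma 3.58.1 (R 4.3.3) across 13539 genes with group as the only term. For a single gene, exact permutation of 2 and 2 arrays cannot go below p = 0.333. The fit was tested on simulated data. The members, the lists and the rule to name every member and up to 3 called genes of each other list were chosen with earlier results of these data known; Acly, Acss2, Aacs, Mbtps1, Mbtps2, Lrp8 and the single marker genes are named beyond that rule, after their values were seen. The normexp alternative used median spot signals, since the files carry no mean spot signal. Signal over background, not read depth, limits dim genes.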

Additional observations from a re-analysis of the deposited data

How the results depend on the processing

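Every one of the 20 called sterol genes kept its direction under all 13 alternatives, but most of these could not reverse it. Limma trend, the fits with blocks and both changes of the filter used the same values for these genes. Leaving out an array cannot reverse a gene whose groups do not overlap, as held for all 20. Only quantile normalization, median scaling, normexp and the mean of kept probes could change a direction. The counts of calls did not hold. Leaving out 1 array gave 0 to 10 sterol genes higher and 0 to 1 lower, and 0 to 7 of the other sterol pathway genes higher and 0 to 1 lower; calls were at 0 without fluoxetine 1 or fluoxetine 2, and the lone array of a group was assumed to vary like the other group. Without the filter on dim probes all 4 counts were 0, with 19 sterol genes higher and 2 lower at an unadjusted p under 0.05. With the replicate number as a block (replicate block), 9 sterol genes were higher and 1 lower, and 7 and 0 of the other pathway genes; equally numbered arrays deviated with a correlation of -0.12 across genes, and whether equal numbers share a culture or day is not given in the labels. Pairing the arrays crosswise, added after seeing the data, gave 13 and 2 sterol genes and 9 and 0 others. Other pathway genes were 26 higher and 0 lower with median scaling, 18 and 6 with limma trend, 5 lower with quantile normalization and 4 lower when all 4 arrays had to be well above background. Over all genes, calls differed by over 1.5 times from 2273 higher and 1374 lower with median scaling (5486 and 813), the replicate block (1085 and 774), without control 1 (551 and 438), and without either fluoxetine array or the dim filter (0, where 4070, 4537 and 5272 genes had an unadjusted p below 0.05).

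Some genes that were not called changed sign. With median scaling the log2 changes were 0.18 for Ggps1, 0.11 for Ebp, 0.10 for Mylip, 0.15 for Scarb1 and 0.04 for Npc2; with normexp they were 0.10 for Ggps1 and -0.09 for Lbr. With the mean of all kept probes Ebp was at 0.37 (called, adjusted p = 0.0436, range over its settings 0.0436 to 0.572) and Scarb1 at 0.10. Leaving out arrays put Scarb1 between -0.23 and 0.10, Ggps1 between -0.24 and 0.17 and Nr1h3 between 0.00 and 0.59. Calls lost otherwise were Cyp51 with quantile normalization, Srebf2 with normexp and Nr1h2 with the mean of its probes. The cause of these shifts was not tested.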
